A study of Mus musculus with 12 samples.

Results

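The comparison described here sets NUP98-HOXD13 cells that were given full-length MEIS1 (MEIS1-WT) against NUP98-HOXD13 cells that were given the empty vector (MIY-ctrl). It uses 6 of the 12 arrays of the series, 3 in each group, and the arrays were chosen by their labels alone, with no measured value involved. All cells, the control cells included, were bone marrow from F1 mice of the cross C57Bl/6Ly-Pep3b x C3H/HeJ (Ly5.1+/Ly5.2+) that had received 5-fluorouracil. They were infected with a first retrovirus for the fusion gene NUP98-HOXD13, marked by GFP or pac, and were then held for 4 weeks in liquid culture. The medium contained fetal bovine serum with human IL-6 (10 ng/ml), murine IL-3 (6 ng/ml) and murine stem cell factor (100 ng/ml). A second retrovirus, for yellow fluorescent protein alone (MIY) or for MEIS1, entered during 2 days on irradiated E86 producer cells with protamine sulfate, and total RNA came from sorted cells. The labels do not state which arrays came from cells marked by GFP and which by pac, the sort gate, the time from infection to RNA or the number of mice. MEIS1 was driven by a retroviral vector, so its level is not that of the cells' own gene. A group with MEIS1 that lacks the homeodomain (MEIS1-deltaHD, 3 arrays) was used for direct tests against MEIS1-WT. The remaining group, M33-MEIS1, was not compared here. Its arrays entered the estimate of the spread, the filter that decided which features were tested and the choice of the brightest probe set of a gene. They also entered the alternative scalings. The series text calls the 3 arrays of a condition independent experiments.

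MEIS1 is a DNA-binding homeodomain protein of the TALE class that acts together with PBX and HOX proteins. It is active in blood stem cells and is shut down as blood cells mature, and it speeds up leukaemia started by HOX genes or by NUP98-HOX fusions. NUP98-HOXD13 joins part of a nuclear pore protein to the homeodomain of HOXD13 and is found in human myeloid leukaemias and myelodysplasia. Cultured marrow cells with such a fusion keep growing as immature myeloid cells in IL-3 and stem cell factor, and a share of them matures into monocytes, macrophages, neutrophils or mast cells.

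Expression is given as array signal on the linear scale of the deposited values. Differences are MEIS1-WT minus control on the scale log2(signal + 16), each with the standard error (SE) of the fit where it is given, and a single value in brackets after a gene is this log2 difference. Adding 16 makes the differences of dim genes smaller than the ratio of their signals. A gene is said to rise or fall where the p of limma's moderated test, adjusted by Benjamini-Hochberg over all features, was below 0.05. Of 19990 features tested 32.7% passed, 2665 higher (13.3%) and 3880 lower (19.4%). All 3 MEIS1-WT arrays lay above all 3 control arrays for 16.5% of features and below them for 26.5%. The median over all features was -0.12. The split of small differences moved with the scaling. After quantile normalization 2998 features were higher and 2869 lower, with the median over all features shifted by 0.13, and after scaling to equal medians 4959 were higher and 1448 lower, with a shift of 0.23. The median signal of an array was 17.4 to 21.6 in control and 14.3 to 15.3 with MEIS1-WT. A list or gene whose direction turned under one of these scalings is named as such beside its value or in the closing section on processing. The 3 arrays a group limit the precision.

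The changes were lopsided in size. Of the features that passed, 180 were higher and 751 lower by at least 1 on the log2 scale, 4 were higher and 200 lower by at least 2, and 0 were higher and 72 lower by at least 3. In 29 features every control array read above 200 and every MEIS1-WT array below 30, and 0 features showed the reverse. The 29 include Tgfbi, Slfn4, Cybb, Ms4a6d, Clec4n, Irf7 and Zbp1. The steepest of all was Tgfbi, a secreted matrix protein made by macrophages, at 1492, 1578 and 1674 in control and 5.57, 19.5 and 16.5 with MEIS1-WT (-5.77 ± 0.134 SE, adjusted p = 2.78e-20). No MEIS1-WT array came near a control array for it.

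**Figure D1:**
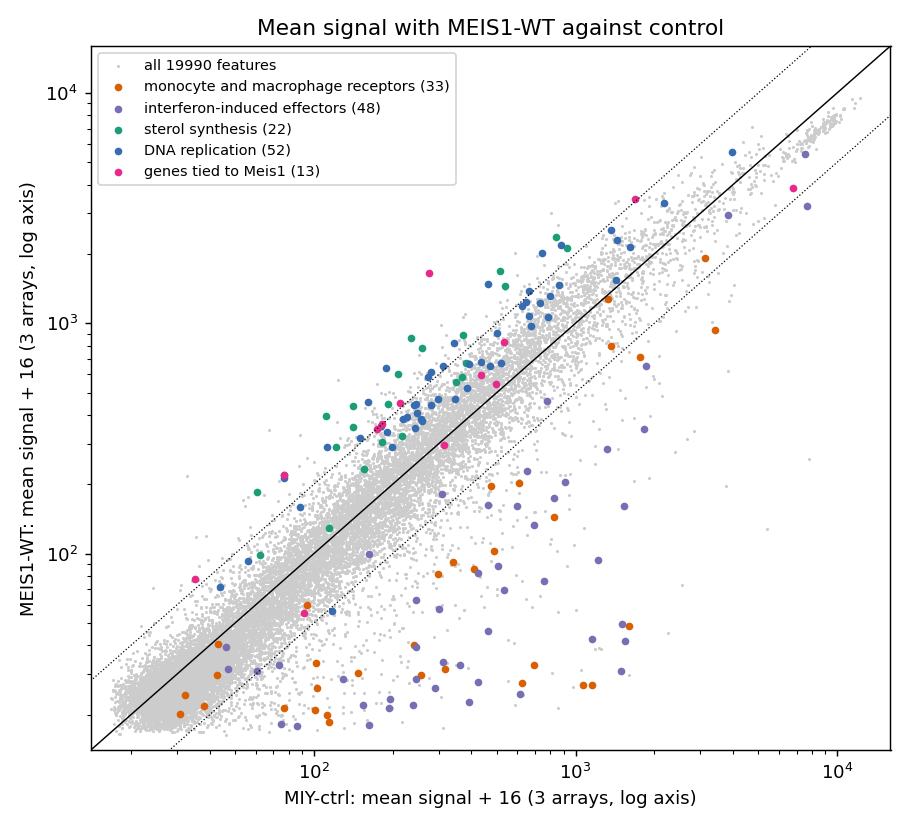
Mean signal plus 16 of 3 MIY-ctrl arrays (x axis, log scale) and 3 MEIS1-WT arrays (y axis, log scale) for the 19990 features, with 5 gene lists in colour; the solid line marks equal signal and the dotted lines a log2 difference of 1 either way. Monocyte receptors and interferon-induced genes spread far below the line, down to a log2 difference of -5.61 in the second list, while most sterol and DNA replication genes sit above it, up to 1.88, with E2f2 at -1.05 below it.

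Of 14 fibroblast genes tested, 11 were below 30 on all 6 arrays, among them Col1a1 (8.96, 18.4 and 8.01 in control and 10.7, 13.2 and 10.4 with MEIS1-WT) and Col1a2 (9.50, 24.5 and 14.1 in control and 16.2, 16.9 and 7.27 with MEIS1-WT), the collagen chains that fibroblasts make in bulk. Of 10 T and NK cell genes 8 were below 30 on all 6 arrays, as were 4 of 7 B cell genes and 4 of 7 erythroid genes. Cd3e, which T cells need for their receptor, read 9.56, 4.01 and 4.18 in control and 10.2, 10.4 and 2.35 with MEIS1-WT. The arrays of both groups had strong signal of the progenitor genes Kit and Cd34 and of Mpo, the myeloperoxidase of early myeloid cells (6464, 6316 and 6784 in control and 5578, 5169 and 5211 with MEIS1-WT), so markers of the labelled cells were present. The fibroblast list, which bears on the producer cells of the second infection, summed to 595 to 687 in control and 419 to 514 with MEIS1-WT, and 0 of its members rose and 2 fell. Over all features 13.3% rose and 19.4% fell. Of B cell genes 1 of 7 rose and 1 fell, and of T and NK cell genes 0 of 10 rose and 2 fell. Of erythroid genes 1 of 7 rose and 2 fell, and of dendritic cell genes 1 of 9 rose and 3 fell. Of eosinophil genes 0 of 3 rose and 1 fell. Several of these small counts moved when 1 array was left out: 1 T and NK cell gene fell without control replicate 2 and 1 without MEIS1-WT replicate 3, 1 fibroblast gene without each of the same arrays, and 1 dendritic gene without control replicate 1 or MEIS1-WT replicate 2. Without MEIS1-WT replicate 1, 2 B cell genes fell, and without MEIS1-WT replicate 3, 1 T and NK cell gene rose. The erythroid gene that rose, Car2, lost its call without control replicate 2 or 3, without MEIS1-WT replicate 1 or 3 and after quantile normalization, which leaves 0 higher. The median of the fibroblast list, -0.10, turned to 0.07 after quantile normalization and 0.05 after median scaling. That of the T and NK cell list, -0.04, turned to 0.13 and 0.10 under the same settings.

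Summed over its 33 tested members, the list of monocyte and macrophage receptors read 19165 to 22030 in control and 6098 to 7026 with MEIS1-WT. The summed mast cell and basophil list read 4006 to 5737 and 2484 to 2670. In such bulk samples fewer cells of a type and less RNA per cell cannot be told apart, and the part that a change in cell types has in any result was not tested.

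Of 3 mouse Meis1 probe sets 0 rose, 2 fell and 1 was not called, with differences from -0.79 to -0.195. The brightest, which was the one used, did not rise. Its signal was 205, 189 and 168 in control and 129, 145 and 148 with MEIS1-WT (-0.37 ± 0.113 SE, adjusted p = 0.0128), with every MEIS1-WT array below every control array. The call was lost without control replicate 1 (-0.31), without MEIS1-WT replicate 1 (-0.32) and after median scaling (-0.04). Whether this probe set sees the inserted gene is unknown, because no source at hand states the sequence of the insert, and so it does not check the labels.

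Genes that other leukaemia studies tie to Meis1 rose in 9 of the 13 that were tested and fell in 2, against 13.3% and 19.4% of all features, with a median of 1.00. Since the series title names Trib2 and Ccl3, this list is not independent evidence of its direction. Dlk1, an imprinted membrane protein related to the Notch ligands, read 226, 248 and 305 in control and 1769, 1425 and 1704 with MEIS1-WT (2.58 ± 0.106 SE, adjusted p = 1.72e-15). Each MEIS1-WT array was above 1400 and each control array below 310. The second Dlk1 probe set also passed, at 0.74. Hlf, a transcription factor of stem cells that is itself a leukaemia gene, read 186, 246 and 158 in control and 427, 416 and 455 with MEIS1-WT (1.10 ± 0.129 SE, adjusted p = 2.72e-07). Flt3, a receptor tyrosine kinase of early progenitors, read 169, 168 and 137 in control and 317, 305 and 372 with MEIS1-WT (1.00 ± 0.126 SE, adjusted p = 8.4e-07). For both genes the groups were clear of each other. Trib2, a pseudokinase, read 10.9, 29.4 and 17.3 in control and 53.8, 75.7 and 55.2 with MEIS1-WT (1.16 ± 0.207 SE, adjusted p = 8.99e-05), but its second probe set differed by only 0.18 and was not called. The chemokine genes Ccl3 (1693, 1833 and 1476 in control and 3487, 3218 and 3588 with MEIS1-WT) and Ccl4 (131, 188 and 179 in control and 337, 289 and 420.4 with MEIS1-WT) rose as well, by 1.04 and 1.00. The members that fell were the cell cycle gene Ccnd1 (-0.73), whose call was lost after median scaling (-0.44), and Mycn (7178, 6733 and 6331 in control and 4066, 3449 and 3998 with MEIS1-WT, -0.81). A second Mycn probe set went the other way, at 0.52, so the direction of Mycn is uncertain. The core of the known MEIS site, searched as TGACAG on both strands of the 250 bases before the start, was held by 2 of 11 promoters of the list (18.2%) and by 4851 of all 27025 genes, in RefSeq promoters of the build GRCm38.p6.

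Dlk1 lies in the imprinted Dlk1-Gtl2 domain, which carries noncoding RNAs on the maternal copy. Of 10 imprinted genes tested 4 rose and 0 fell, and 3 of the 4 belong to that domain. Meg3, the long noncoding RNA of the domain, read 36.7, 47.2 and 39.3 in control and 115, 98.4 and 131 with MEIS1-WT (1.196 ± 0.162 SE, adjusted p = 2.43e-06), with groups that did not overlap. Of 10 Meg3 probe sets 5 rose and 5 were not called, with the lowest at -0.29. Rian, a neighbouring noncoding RNA, was dim, at 10.0, 5.85 and 10.0 in control and 26.0, 20.8 and 26.9 with MEIS1-WT (0.72 ± 0.210 SE, adjusted p = 0.00964), and the call was lost in the mean of its probe sets (0.02), in its second probe set (-0.19) and with 1 in place of 16 added before the log (1.44, where a dim gene spreads more). The other riser was Plagl1, a zinc finger gene of another imprinted region, at 1.18, yet its second probe set differed by -0.17 and was not called. The imprinted growth factor gene Igf2 was dim, at 4.85, 32.0 and 22.2 in control and 3.67, 4.40 and 27.6 with MEIS1-WT. Direct tests set MEIS1-WT above MEIS1-deltaHD for all 4 risers, with differences of 3.72 for Dlk1, 1.92 for Meg3, 1.76 for Plagl1 and 0.91 for Rian. Over all features 5.25% passed this test, 485 higher with MEIS1-WT (2.43%) and 565 lower (2.83%). It shares the MEIS1-WT arrays with the comparison against control. For Dlk1, MEIS1-deltaHD differed from control by -1.14, so the direct difference exceeds the rise over control.

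Stem and progenitor cell genes moved both ways. Of 28 tested, 8 rose and 11 fell, with a median of -0.07 that turned to 0.25 after median scaling, where 12 were higher and 3 lower. Without 1 array this median ranged from -0.13 to -0.01. Besides Hlf and Flt3 the risers included Cd34, a surface glycoprotein of early blood cells, at 538, 492 and 519.5 in control and 795, 838 and 805 with MEIS1-WT (0.64 ± 0.0731 SE, adjusted p = 1.86e-07). Angpt1, a ligand for the receptor Tek, rose by 0.73, with its second probe set at 0.33 and not called. Kit, the receptor for the stem cell factor in the medium, read 409.7, 376 and 406 in control and 544, 520.2 and 409.7 with MEIS1-WT (0.29 ± 0.0939 SE, adjusted p = 0.0203). Its highest control array and its lowest MEIS1-WT array were equal to the printed digit, and the call was lost without control replicate 2 (0.25), without MEIS1-WT replicate 1 (0.21) or replicate 2 (0.24), and after quantile normalization (0.23). The second Kit probe set differed by -0.17. Among those that fell were Prom1, the stem cell surface protein CD133, at -1.01 and Ikzf2, a zinc finger transcription factor, at 556, 499 and 451 in control and 259, 271 and 258 with MEIS1-WT (-0.89 ± 0.0915 SE, adjusted p = 3.45e-08). Direct tests put 9 of the 28 higher with MEIS1-WT than with MEIS1-deltaHD and 2 lower. Hlf differed by 1.94 ± 0.129 with adjusted p = 1.85e-10 and Flt3 by 1.38 ± 0.126 with adjusted p = 3.81e-08, whereas for Cd34 the difference was 0.00 ± 0.0731 with adjusted p = 0.992. MEIS1-deltaHD differed from control by -0.84 for Hlf and -0.39 for Flt3, so their direct differences exceed their rise over control.

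HOX genes and their TALE partners gave 3 of 19 higher and 7 lower, with a median of -0.29 that turned to 0.05 after median scaling (5 higher and 3 lower). Without control replicate 1 or 3, or MEIS1-WT replicate 2 or 3, 1 member was higher. Genes of the Hoxb cluster led the decrease. Hoxb3 read 185, 185 and 200.5 in control and 77.9, 82.9 and 81.2 with MEIS1-WT (-1.09 ± 0.122 SE, adjusted p = 1.31e-07) and Hoxb6 111, 117 and 130.2 in control and 53.1, 39.6 and 65.6 with MEIS1-WT (-0.99 ± 0.152 SE, adjusted p = 1.25e-05), both with groups that did not overlap. Hoxb4 differed by -0.96, with its second probe set at -0.35 and not called. Hoxa9, which is needed for many HOX-driven leukaemias, stayed bright at 2421, 2207 and 2208 in control and 1877, 1881 and 1837 with MEIS1-WT, a difference of -0.29 that turned to 0.08 after median scaling. Pknox1, a TALE relative of Meis1, rose, at 109, 101 and 99.5 in control and 194, 159 and 189 with MEIS1-WT (0.72 ± 0.139 SE, adjusted p = 0.000233), and it also lay above MEIS1-deltaHD by 0.72 ± 0.139 with adjusted p = 0.00148.

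The receptors and surface proteins of monocytes and macrophages fell in 30 of 33 tested and rose in 0, with a median of -1.91 against -0.12 over all features. Ms4a6d, a tetraspan protein of macrophages, read 856, 1380.3 and 1191 in control and 10.7, 8.05 and 14.3 with MEIS1-WT (-5.40 ± 0.145 SE, adjusted p = 6.73e-19). Csf1r, the receptor through which M-CSF keeps macrophages alive, read 1521, 1544 and 1707 in control and 34.3, 36.9 and 25.7 with MEIS1-WT (-5.06 ± 0.0914 SE, adjusted p = 2.9e-22). In both, the highest MEIS1-WT array was far under the lowest control array. Clec4n and Clec7a, lectins that bind fungal sugars, fell (-4.50 and -3.35). The chemokine receptors Ccr1 (918, 1065 and 921 in control and 102, 72.9 and 103 with MEIS1-WT, -3.19) and Ccr2 (688, 791 and 945 in control and 144, 119 and 119 with MEIS1-WT, -2.51), which draw monocytes to inflamed tissue, fell in a list where 4 of 9 fell and 0 rose (1 rose without control replicate 3). Itgam, the integrin chain CD11b, read 197, 243 and 238 in control and 29.2, 19.2 and 24.4 with MEIS1-WT (-2.59 ± 0.132 SE, adjusted p = 1.22e-13). One lectin did not follow: Clec4e, named here after its values were seen, read 1170.0, 1501 and 1273 in control and 1264, 1151 and 1369 with MEIS1-WT (-0.06, adjusted p = 0.751), with overlapping groups. Of the 33 receptors 16 were lower with MEIS1-WT than with MEIS1-deltaHD and 1 was higher. For Csf1r this difference was -3.20 ± 0.0914 with adjusted p = 1.23e-17, with MEIS1-deltaHD at 425 ± 23.8 (SD, n = 3).

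Lysosomal genes fell in 26 of 31 and rose in 2, with a median of -1.02. The lysozyme gene Lyz2, whose product cuts bacterial walls, read 5307, 5527 and 5339 in control and 126, 101 and 107 with MEIS1-WT (-5.41 ± 0.0814 SE, adjusted p = 9.02e-24). The protease gene Ctss, which prepares antigen in macrophages, read 2238, 2843 and 2505 in control and 58.7, 46.0 and 66.9 with MEIS1-WT (-5.12 ± 0.112 SE, adjusted p = 1.28e-20). Gpnmb, a glycoprotein of phagocytes, read 895, 1278 and 936 in control and 18.7, 10.9 and 15.9 with MEIS1-WT (-5.07 ± 0.15 SE, adjusted p = 3.85e-18), with a second probe set at -0.86. On each of these genes the 3 MEIS1-WT arrays were at or under 130 and every control array was above 890. Psap, the precursor of the saposins that help break down sphingolipids, fell (-3.09). Lyz1 has a nearly identical sequence to Lyz2 and its probe sets disagreed: -4.92 in the one used and -0.52, not called, once shared probe sets were left out. Gusb, the beta-glucuronidase, rose by 0.40. Ctse, cathepsin E, rose by 0.53 in the probe set used and fell by 0.66 in its second one, so its direction is uncertain. Lower values with MEIS1-WT than with MEIS1-deltaHD were found for 12 of the 31 and higher values for 0.

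**Figure D2:**
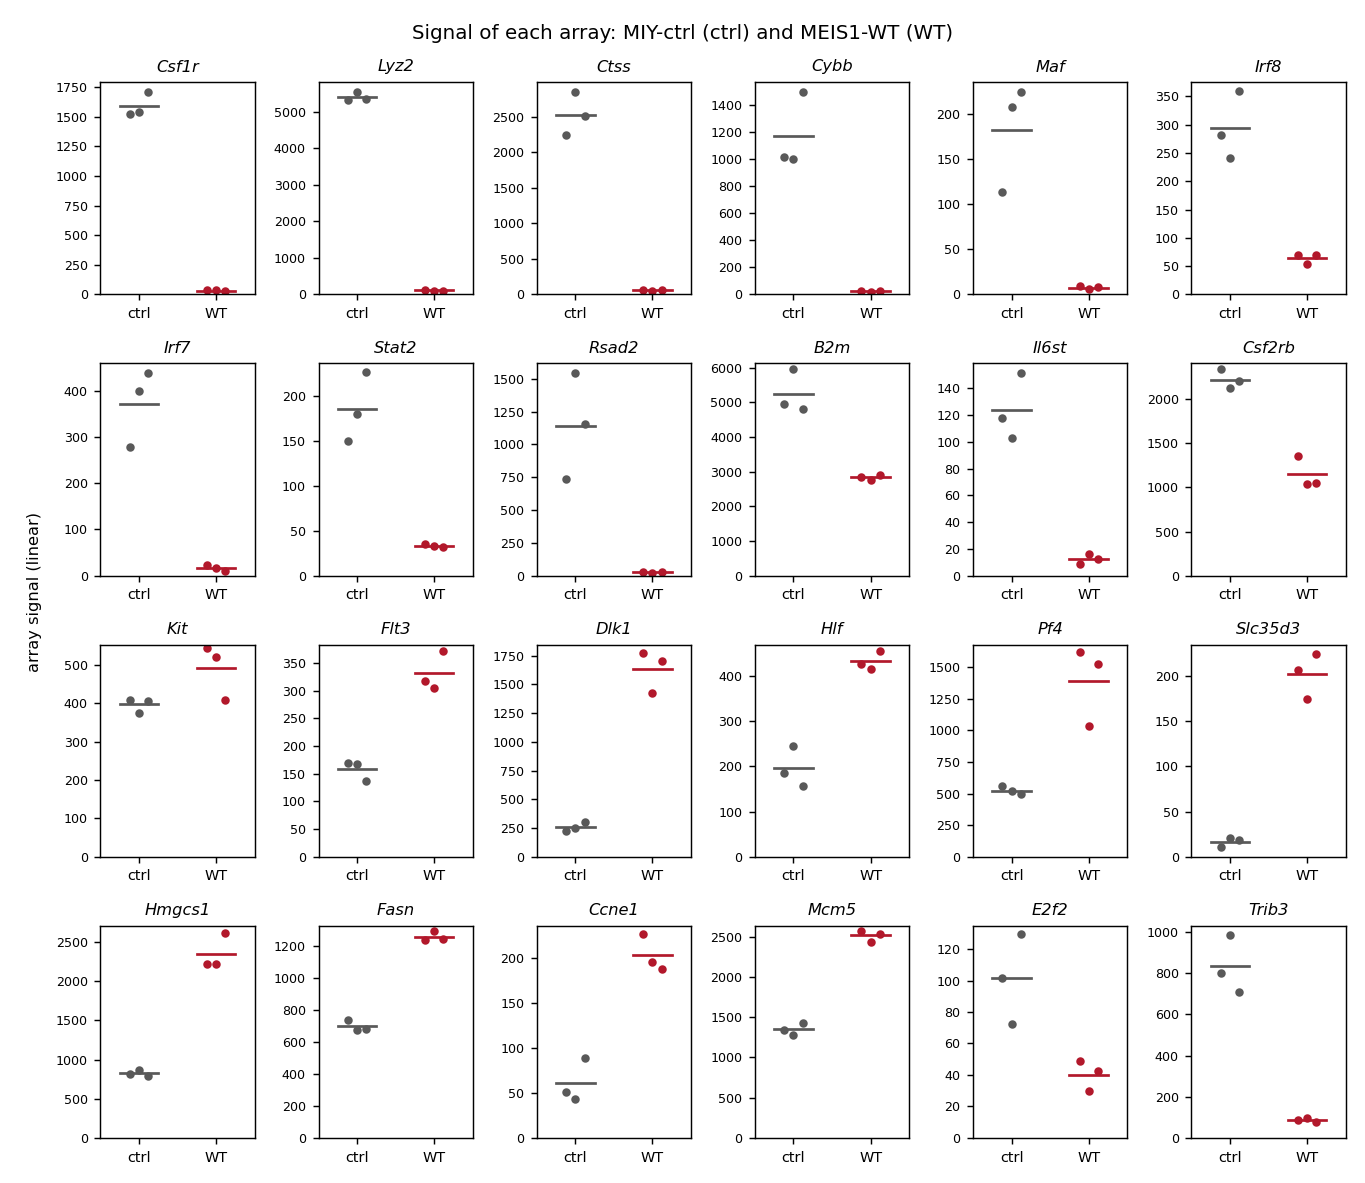
Signal (y axis, linear scale) of every MIY-ctrl (ctrl, grey) and MEIS1-WT (WT, red) array for 24 genes, 3 arrays a group, with a bar at the group mean. No group overlaps the other, although the lowest MEIS1-WT array of Kit is level with the highest control array, and for Csf1r, Lyz2, Ctss, Cybb and Maf the MEIS1-WT arrays lie near 0.

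Transcription factors that guide myeloid cells fell in 23 of 31 and rose in 1, with a median of -0.74. Maf, which drives macrophage genes, read 114, 208 and 224 in control and 9.04, 6.38 and 7.75 with MEIS1-WT (-3.01 ± 0.219 SE, adjusted p = 9.15e-11), with a second probe set at -0.86. Klf4, a factor of monocyte development, read 95.2, 98.0 and 94.7 in control and 9.34, 7.33 and 6.10 with MEIS1-WT (-2.25 ± 0.160 SE, adjusted p = 5.81e-11). Irf8, which turns progenitors toward monocytes and dendritic cells, read 282, 240.3 and 359 in control and 68.9, 53.0 and 69.6 with MEIS1-WT (-1.95 ± 0.122 SE, adjusted p = 6.5e-12). All of these had groups well apart. Id2 fell (-2.19) and Cebpb, a factor of inflammatory macrophages, (-1.62). Of 3 Id2 probe sets 2 fell and 1 was not called, with the highest at -0.27. Spi1, which encodes PU.1, fell less, at 539.9, 438 and 640.0 in control and 283, 274 and 315 with MEIS1-WT (-0.84 ± 0.103 SE, adjusted p = 5.49e-07). Cebpa, needed for granulocyte progenitors, stood at 467, 485 and 442 in control and 401, 412 and 384 with MEIS1-WT, and its difference of -0.21 (adjusted p = 0.0409) was lost in each fit that left out an array (-0.18 to -0.23) other than that without control replicate 3, and turned to 0.15 after median scaling. Gfi1, a transcriptional repressor that acts in the neutrophil line, fell (-1.01). Its relative Gfi1b, a transcriptional repressor that acts in erythroid and platelet-forming cells, rose, at 117, 149 and 108 in control and 251, 248 and 296 with MEIS1-WT (1.00 ± 0.136 SE, adjusted p = 2.37e-06). The direct test gave 12 of the 31 lower and 4 higher with MEIS1-WT than with MEIS1-deltaHD. Irf8 differed by -1.82 ± 0.122 with adjusted p = 2.12e-10 and Gfi1b by 1.04 ± 0.136 with adjusted p = 1.21e-05, while Maf differed by -0.09 ± 0.219 with adjusted p = 0.899 and Klf4 by -0.49 ± 0.160 with adjusted p = 0.0834.

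Toll-like receptors and the inflammasome fell in 19 of 25 and rose in 0, with a median of -0.91. Without control replicate 1, and without MEIS1-WT replicate 1, 1 member rose. Tlr2, which senses bacterial lipoproteins, read 571, 563 and 593 in control and 50.03, 68.4 and 76.5 with MEIS1-WT (-2.88 ± 0.117 SE, adjusted p = 1.44e-15). Il18, an inflammasome substrate, read 103, 127 and 140.0 in control and 13.1, 10.2 and 9.38 with MEIS1-WT (-2.37 ± 0.207 SE, adjusted p = 2.08e-09). The inflammatory caspase gene Casp4 fell (-1.86), and Tlr13, a sensor of bacterial ribosomal RNA, (-2.10). The groups of Tlr2 and Il18 were separate, and the adaptors and kinases of the pathway (Myd88, Irak1 and Traf6, named after their values were seen) did not pass, at -0.27, -0.02 and 0.08.

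The phagocyte oxidase, which makes superoxide, changed unevenly across its subunits. Cybb, its membrane-bound catalytic subunit, read 1018, 1000.1 and 1497 in control and 23.4, 18.4 and 25.3 with MEIS1-WT (-4.93 ± 0.130 SE, adjusted p = 4.71e-19), with no MEIS1-WT array above 26. Its partner Cyba fell (-0.68) and the cytosolic subunit gene Ncf4 (-0.72). Ncf1 (-0.16, adjusted p = 0.27) and the small GTPase genes Rac1 (0.15, adjusted p = 0.134) and Rac2 (-0.08, adjusted p = 0.426) did not pass, though Ncf1 did without control replicate 2 (-0.31) and Rac1 after median scaling (0.52). Median scaling put Rac2 at 0.28, past the threshold, and quantile normalization at -0.19, also past it, so its direction depends on the scaling. In all, 3 of the 6 fell and 0 rose, with 2 higher after median scaling. Cybb was also lower than with MEIS1-deltaHD, with a difference of -2.62 ± 0.130 with adjusted p = 7.43e-13.

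Receptors for cytokines and growth factors fell in 18 of 24 and rose in 2, with a median of -0.78, and they include those for factors in the medium. Il6st, the signalling chain gp130 shared by IL-6 and its relatives, read 118, 103 and 152 in control and 8.62, 16.3 and 12.1 with MEIS1-WT (-2.30 ± 0.167 SE, adjusted p = 9.09e-11). Every MEIS1-WT array was under 17 and every control array above 100. The IL-6 binding chain Il6ra was dim and fell (-0.72), a call that quantile normalization (-0.52) and median scaling (-0.49) ended. Csf2rb, the beta chain that IL-3, IL-5 and GM-CSF share, read 2343, 2125 and 2204 in control and 1361, 1043 and 1050.2 with MEIS1-WT (-0.95 ± 0.0873 SE, adjusted p = 4.95e-09), and Csf2rb2, the mouse beta chain of its own for IL-3, read 730.1, 740.1 and 615 in control and 259.9, 213 and 249.7 with MEIS1-WT (-1.47 ± 0.0926 SE, adjusted p = 6.73e-12). These genes are close copies, so signal of one may be read by the probe set of the other. Il3ra, the specific chain of the IL-3 receptor, was dim, at 23.3, 41.2 and 17.99 in control and 6.42, 20.1 and 19.4 with MEIS1-WT, and did not pass (-0.47, adjusted p = 0.116). Csf3r, the receptor for G-CSF, fell (-1.38), the decoy receptor Il1r2 (-2.80) and Il7r, the receptor for IL-7, (-1.82). The 2 that rose were the receptor kinases Flt3 and Kit, and without control replicate 2, or MEIS1-WT replicate 1 or 2, 1 member rose. Against MEIS1-deltaHD, 8 of the 24 were lower and 2 higher, among them Il6st (-0.91 ± 0.167 with adjusted p = 0.000855), Csf2rb2 (-0.59 ± 0.0926 with adjusted p = 0.000139) and Kit (0.64 ± 0.0939 with adjusted p = 5.71e-05).

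The interferon response was traced from its sensors to its effectors. Cells detect foreign nucleic acid with sensors, answer with type I interferon, and pass the interferon signal through JAK kinases and a complex that holds STAT2 and IRF9 to many target genes. Among sensors of RNA and DNA 8 of 11 fell and 0 rose, with a median of -1.199. Zbp1, which binds left-handed nucleic acid, read 238, 296 and 349.6 in control and 0.870, 2.55 and 1.18 with MEIS1-WT (-4.13 ± 0.216 SE, adjusted p = 2.08e-13). Ifih1, the sensor MDA5, read 556, 864 and 721 in control and 52.4, 42.3 and 52.6 with MEIS1-WT (-3.47 ± 0.137 SE, adjusted p = 8.1e-16). All MEIS1-WT arrays of both genes were far under every control array. Dhx58 and Ddx58, the related RNA helicases, fell (-3.20 and -3.03). Of 3 Dhx58 probe sets 2 fell and 1 was not called, with the highest at -0.40.

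Of 20 receptors, kinases, transcription factors and inhibitors of the interferon pathway, 17 fell and 0 rose, with a median of -0.78. The receptor chains Ifnar2 (590.1, 573 and 663 in control and 251, 257 and 286 with MEIS1-WT, -1.16) and Ifnar1 (-0.50, lost after median scaling at -0.18) were lower. Stat2 read 150.1, 179.8 and 227 in control and 34.8, 32.9 and 32.0 with MEIS1-WT (-2.02 ± 0.149 SE, adjusted p = 1.13e-10), Irf9 274, 323 and 285 in control and 48.5, 42.4 and 41.3 with MEIS1-WT (-2.36 ± 0.128 SE, adjusted p = 3.68e-13) and Irf7, which amplifies interferon production, 278, 401 and 439 in control and 22.5, 15.7 and 9.41 with MEIS1-WT (-3.60 ± 0.224 SE, adjusted p = 5.33e-12). Usp18, a protease that damps the receptor, read 916, 1368 and 1355 in control and 30.01, 25.4 and 13.3 with MEIS1-WT (-4.98 ± 0.167 SE, adjusted p = 4.03e-17). Groups were apart for all 4. Irf3, named after its values were seen, is the factor that starts interferon production and is present before any stimulus. It read 263, 254 and 248 in control and 263, 247 and 226 with MEIS1-WT and did not pass (-0.06, adjusted p = 0.676). The gene of interferon beta itself, Ifnb1, was dim in both groups, at 13.4, 31.8 and 18.4 in control and 9.62, 7.83 and 22.3 with MEIS1-WT (-0.35, adjusted p = 0.284).

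Of 48 interferon-induced effector genes 46 fell and 0 rose, with a median of -2.39. Rsad2, the antiviral enzyme viperin, read 733, 1542 and 1157 in control and 28.8, 22.3 and 29.0 with MEIS1-WT (-4.70 ± 0.209 SE, adjusted p = 8.69e-15). Ifit1, which binds foreign RNA ends, read 251, 488 and 392 in control and 4.62, 7.50 and 8.09 with MEIS1-WT (-4.07 ± 0.229 SE, adjusted p = 8.4e-13). Oasl2 (-4.66), Rtp4 (-5.22, with a second probe set at -1.36) and Slfn4 (-5.61) were among the lowest. Every MEIS1-WT array of Rsad2 was under 30, while the control arrays ranged from 733 to 1542. Control replicate 1 had the lowest control value for Rsad2, Ifit1, Zbp1, Irf7, Usp18 and Stat2, and without it 47 effectors fell. In the direct test 5 of 48 effectors were lower with MEIS1-WT than with MEIS1-deltaHD and 0 higher, and for 6 of the 20 pathway genes MEIS1-WT was lower. Irf7 read 15.9 ± 7.80 (SD, n = 3) with MEIS1-deltaHD, a difference of 0.01 ± 0.224 with adjusted p = 0.99, Rsad2 18.7 ± 7.87 (SD, n = 3) with a difference of 0.32 ± 0.209 with adjusted p = 0.514, and Usp18 18.6 ± 3.05 (SD, n = 3) with a difference of 0.15 ± 0.167 with adjusted p = 0.755. A p that misses the threshold does not show that the groups were alike.

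Promoter sequence was looked up for these lists because their members moved together. The interferon-stimulated response element, searched as GAAA, any 2 bases and GAAA on both strands of the 250 bases before the start, was present in 16 of 39 effector genes with a promoter in the table (41.0%), 3 of 19 pathway genes (15.8%) and 0 of 7 sensors. Over 27025 genes the share was 3.5%. The windows of 2 effectors that fell are shown in the sense direction from RefSeq (GRCm38.p6), with matches to the element or to its reverse complement in capitals. Rsad2 is taken from chr12:26456533-26456602, minus strand and Ifit1 from chr19:34640755-34640824, plus strand.
Rsad2: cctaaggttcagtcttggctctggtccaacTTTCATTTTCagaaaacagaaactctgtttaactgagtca
Ifit1: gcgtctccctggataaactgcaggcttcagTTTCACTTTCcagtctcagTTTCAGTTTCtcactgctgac
Ifit1 holds 2 matches within the window and Rsad2 1. Matches of each motif were counted on their own, also where they overlap another motif. A match describes the letters only and does not show that a factor binds there.

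Antigen presentation genes followed in part. For MHC class I 10 of 16 fell and 1 rose, with a median of -0.35, and under median scaling the median was 0.01 with 5 lower and 4 higher. Without MEIS1-WT replicate 3, 2 rose. Nlrc5, the activator of class I genes, read 30.3, 50.01 and 37.2 in control and 3.99, 4.19 and 0.370 with MEIS1-WT (-1.54 ± 0.230 SE, adjusted p = 9.6e-06). Tapbp, which loads peptide, fell (-1.34) and B2m, the light chain, read 4941, 5960.5 and 4819 in control and 2843, 2771 and 2896 with MEIS1-WT (-0.88 ± 0.0783 SE, adjusted p = 3.1e-09). Pdia3, a chaperone shared with other proteins, rose by 0.58, but its second probe set was at -0.24 and not called. In class II 5 of 8 fell and 0 rose (3 without MEIS1-WT replicate 2 and 3 without MEIS1-WT replicate 3), led by Cd74, the invariant chain, at 242, 308 and 267 in control and 30.2, 33.5 and 18.1 with MEIS1-WT (-2.75 ± 0.176 SE, adjusted p = 9.32e-12).

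Neutrophil genes were read as an early and a late list. Of 12 genes of primary granules and early neutrophil cells 5 fell and 1 rose, with a median of -0.14 that turned to 0.23 after median scaling (5 higher and 3 lower) and ranged from -0.21 to -0.09 without 1 array. Mpo differed by -0.29 and turned to 0.07 after median scaling. Ms4a3, a gene of granulocyte and monocyte progenitors, rose, at 1042, 743 and 1433 in control and 1658, 1684 and 1618 with MEIS1-WT (0.67 ± 0.134 SE, adjusted p = 0.000345). Elane, neutrophil elastase, is named here after its values were seen. It read 800.0, 402 and 1016 in control and 761, 785 and 726 with MEIS1-WT and did not pass (0.13, adjusted p = 0.627), with MEIS1-WT arrays inside the wide range of control. Of 19 genes of later granules and late neutrophils 12 fell and 0 rose, with a median of -1.21. Mmp8, a collagenase, read 3717, 3840.1 and 3682 in control and 219, 142 and 179.7 with MEIS1-WT (-4.28 ± 0.117 SE, adjusted p = 9.14e-19), and Lcn2, which binds bacterial iron carriers, fell (-2.33). Fpr2, a receptor for bacterial peptides, fell (-2.82) and Chil3, a chitinase-like protein, (-2.11). Relative to MEIS1-deltaHD, 8 of the 12 early genes and 9 of the 19 late genes were lower with MEIS1-WT, and 0 of either list were higher. For Ms4a3 the difference was -1.22 ± 0.134 with adjusted p = 8.39e-07 and for Mmp8 -1.27 ± 0.117 with adjusted p = 4.63e-08.

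Mast cell and basophil genes fell in 13 of 18 and rose in 1, with a median of -0.61. Gzmb, a protease gene active in cultured mast cells, read 984, 1183 and 651 in control and 224, 178 and 214 with MEIS1-WT (-2.08 ± 0.169 SE, adjusted p = 6.27e-10), and Fcer1a, the chain of the IgE receptor that binds IgE, read 154, 176 and 120.2 in control and 41.4, 31.3 and 41.8 with MEIS1-WT (-1.61 ± 0.144 SE, adjusted p = 3.25e-09). Both had groups that did not overlap. Cpa3, a carboxypeptidase of mast cell granules, remained bright with MEIS1-WT, at 1661, 2102 and 1303 in control and 890.1, 793 and 855 with MEIS1-WT (-0.96). Hdc, which makes histamine, rose instead, at 129, 151 and 164 in control and 179, 228 and 228 with MEIS1-WT (0.47 ± 0.110 SE, adjusted p = 0.00153). Mitf, a mast cell transcription factor, fell (-1.31) in the probe set used, while its second probe set was at -0.07 and not called. After median scaling 8 of the 18 were lower.

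Megakaryocyte and platelet genes included the gene with the greatest increase of all features. Slc35d3, which platelets need to form their dense granules, read 11.2, 20.3 and 18.3 in control and 207, 174 and 224 with MEIS1-WT (2.74 ± 0.172 SE, adjusted p = 6.23e-12). It was at or under 21 on every control array. Pf4, platelet factor 4, read 557, 517 and 495 in control and 1624, 1037 and 1525 with MEIS1-WT (1.36 ± 0.159 SE, adjusted p = 2.54e-07), and its lowest MEIS1-WT array was far over the highest control array. No other member of the list rose. Of 23 tested, 2 rose and 8 fell, with a median of -0.18 (0.01 after median scaling, 6 higher and 4 lower, and from -0.28 to -0.02 without 1 array). Thbs1, thrombospondin, fell, at 223, 461 and 308 in control and 86.7, 68.4 and 61.1 with MEIS1-WT (-1.93 ± 0.168 SE, adjusted p = 2.08e-09), Selp, P-selectin, (-0.81) with its second probe set at -0.41 and not called, and the factor Gata1 (-0.67), a call lost after median scaling (-0.39). The direct test put 9 of the 23 above MEIS1-deltaHD and 1 below. Slc35d3 differed by 2.86 ± 0.172 with adjusted p = 2.65e-11 and Pf4 by 1.77 ± 0.159 with adjusted p = 3.23e-08, while Thbs1 was the one below (-1.19 ± 0.168 with adjusted p = 3.59e-05).

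Chemokine genes moved both ways. Of 19 ligands 3 rose (Ccl3, Ccl4 and Pf4), and this 15.8% was near the 13.3% of all features. The 8 that fell made 42.1%, against 19.4% of all features, and the median was -0.38. Without control replicate 2, 5 were higher and the median was -0.14, without control replicate 1 the median was -0.64, and without MEIS1-WT replicate 2 it was -0.24. Ccl6, made by myeloid cells, read 767, 866 and 888 in control and 47.9, 36.8 and 34.9 with MEIS1-WT (-3.94 ± 0.114 SE, adjusted p = 2.69e-18). Ccl2, which draws monocytes, read 113, 378 and 150.4 in control and 20.2, 16.2 and 17.6 with MEIS1-WT (-2.58 ± 0.269 SE, adjusted p = 4.02e-08). Control replicate 2 was far above the other control arrays for Ccl2, and all MEIS1-WT arrays were lower than each of them. Ccl12 and Ccl7, neighbours of Ccl2 in function, fell (-1.87 and -1.30), and Cxcl10, an interferon target, (-1.61). Relative to MEIS1-deltaHD 5 of 19 were higher and 2 lower with MEIS1-WT, with Ccl4 at 1.58 ± 0.182 with adjusted p = 1.74e-06 and Ccl6 at -1.54 ± 0.114 with adjusted p = 1.28e-09.

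**Figure D3:**
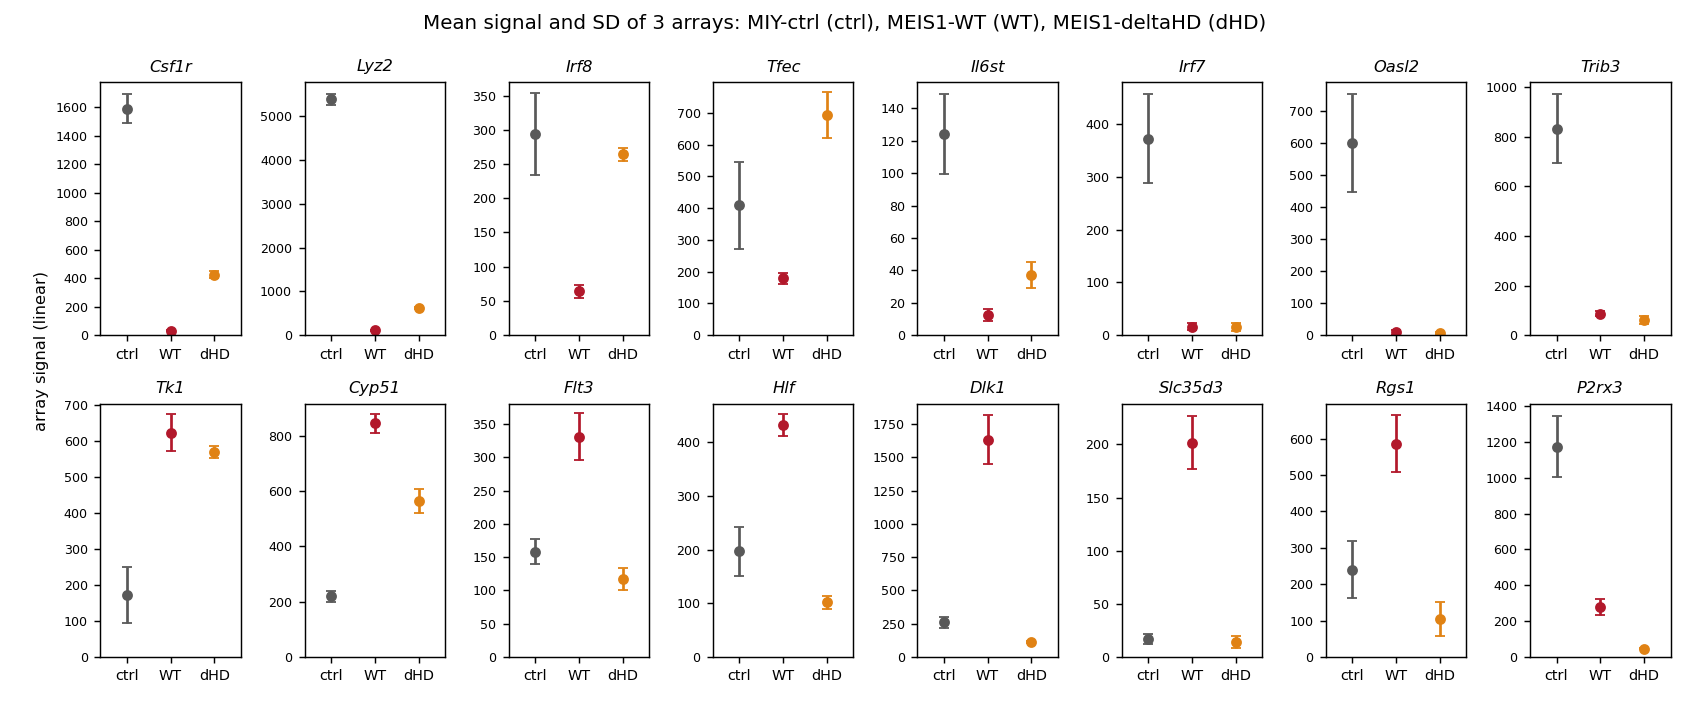
Mean signal (y axis, linear scale) with the SD of 3 arrays for 16 genes in MIY-ctrl (ctrl), MEIS1-WT (WT) and MEIS1-deltaHD (dHD). Irf7, Oasl2, Trib3 and Tk1 did not pass the direct test between the MEIS1 groups, whereas Flt3, Hlf, Dlk1, Slc35d3, Rgs1 and P2rx3 passed as higher with MEIS1-WT, and P2rx3 lies lowest with MEIS1-deltaHD.

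In the list of RGS proteins, which end signals of G protein-coupled receptors, and receptors for extracellular nucleotides 11 of 18 fell and 2 rose, with a median of -0.63. P2ry6, a receptor for UDP, read 83.4, 71.7 and 104 in control and 0.890, 1.59 and 1.05 with MEIS1-WT (-2.56 ± 0.188 SE, adjusted p = 1.01e-10). P2ry14, which senses UDP-glucose, read 174, 202 and 226 in control and 33.8, 23.6 and 37.3 with MEIS1-WT (-2.19 ± 0.142 SE, adjusted p = 1.07e-11). P2ry13, an ADP receptor, and P2rx4, an ATP-gated channel, fell (-1.27 and -0.96). In each of these the MEIS1-WT arrays were all beneath the control arrays in the probe set used. Of 4 P2rx4 probe sets 2 fell and 2 were not called, with the highest at -0.22. P2rx3, another ATP-gated channel, read 1178, 1344 and 999.7 in control and 303, 226 and 300.5 with MEIS1-WT (-2.02 ± 0.123 SE, adjusted p = 3.76e-12). It was lower still with MEIS1-deltaHD, at 46.3 ± 5.07 (SD, n = 3), so the difference of MEIS1-WT from MEIS1-deltaHD was 2.22 ± 0.123 with adjusted p = 5.93e-12. Rgs1 and Rgs2 were the 2 that rose. Rgs1 read 234, 321 and 165 in control and 607, 499 and 653 with MEIS1-WT (1.27 ± 0.197 SE, adjusted p = 1.6e-05) and lay above MEIS1-deltaHD by 2.38 ± 0.197 with adjusted p = 8.53e-09, and Rgs2 rose by 0.59.

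Sterol genes rose in 21 of 22 and fell in 0, with a median of 1.27. Cells short of cholesterol release SREBP factors from the endoplasmic reticulum, which switch on the enzymes that build it. Cyp51, which removes a methyl group from lanosterol, read 212, 202 and 242 in control and 806, 867 and 866 with MEIS1-WT (1.88 ± 0.0830 SE, adjusted p = 7.82e-15). Dhcr7, the last enzyme of the path, read 88.4, 88.9 and 107 in control and 365, 336 and 442 with MEIS1-WT (1.84 ± 0.107 SE, adjusted p = 1.76e-12). Srebf2, the gene of the factor itself, rose by less, at 171, 157 and 171 in control and 303, 294 and 272 with MEIS1-WT (0.74 ± 0.101 SE, adjusted p = 2.43e-06). Groups were separate in all 3. A sterol element searched as TCACNCCAC was held by 1 of 18 sterol promoters (5.6%), by 0 of 17 of the fatty acid list and by 1.2% of all genes. The one holder was Hmgcs1, which makes HMG-CoA and is named after its values were seen. It read 817, 873 and 793 in control and 2219, 2218 and 2619 with MEIS1-WT (1.49 ± 0.0895 SE, adjusted p = 3.06e-12), and its sense window from chr13:119690184-119690253, plus strand has the element in capitals.
Hmgcs1: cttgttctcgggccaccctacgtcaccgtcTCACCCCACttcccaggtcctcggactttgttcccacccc
Against MEIS1-deltaHD 7 of the 22 sterol genes were higher with MEIS1-WT and 0 lower, for instance Cyp51 by 0.58 ± 0.0830 with adjusted p = 4.33e-05, Lss, which closes the sterol rings, by 0.40 ± 0.108 with adjusted p = 0.0258, and Hmgcs1 by 0.39 ± 0.0895 with adjusted p = 0.00739.

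Fatty acid genes rose in 13 of 23 and fell in 3, with a median of 0.33. Scd1, which places the double bond of oleate, read 123, 44.3 and 157 in control and 570.2, 517 and 572 with MEIS1-WT (2.33 ± 0.227 SE, adjusted p = 1.36e-08). Its control arrays were scattered, with replicate 2 lowest, and all were under the MEIS1-WT arrays. Fads2, a desaturase of polyunsaturated fats, rose by 1.23, and Aacs, which activates ketone bodies for synthesis, by 1.16. Another Aacs probe set was at -0.07 and not called. Srebf1 rose by 0.84, Acly, which supplies acetyl-CoA, by 0.93 (another probe set at -0.21 was not called) and the elongase gene Elovl6 by 0.92. Those lower were genes of triglyceride synthesis, Dgat2 (-0.55, lost after median scaling at -0.23), Dgat1 (-0.30) and Gpam (-0.28). The last 2 turned to 0.03 and 0.06 after median scaling. Dgat1 lost its call without control replicate 1 or 3 or MEIS1-WT replicate 1 or 2 (-0.25 to -0.28), and Gpam without control replicate 2 or 3 or MEIS1-WT replicate 2 or 3 (-0.23 to -0.28).

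Of 17 genes of cholesterol efflux and lipid storage 10 fell and 2 rose, with a median of -0.86. Abca1, which exports cholesterol, read 123, 98.8 and 121 in control and 14.2, 6.13 and 6.10 with MEIS1-WT (-2.40 ± 0.171 SE, adjusted p = 6.01e-11), with a second probe set at -0.97. Apoc2, the cofactor of lipoprotein lipase, read 195, 221 and 229 in control and 20.8, 10.7 and 2.78 with MEIS1-WT (-3.13 ± 0.207 SE, adjusted p = 1.54e-11). No MEIS1-WT array of either reached 21. The lipase Lpl fell (-2.01), the fatty acid carrier Fabp4 (-2.11), the exporter gene Abcg1 (-1.32) and Plin2, the coat of lipid droplets, (-1.18). Several of these are macrophage genes, and the summed monocyte receptors were also lower. Whether the changes are linked was not tested. Lpcat3, which remodels phospholipids, rose by 0.34. Scarb1, the receptor for HDL, rose by 0.28, a call lost without control replicate 2 (0.21), without MEIS1-WT replicate 3 (0.22) and after quantile normalization (0.21).

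**Figure D4:**
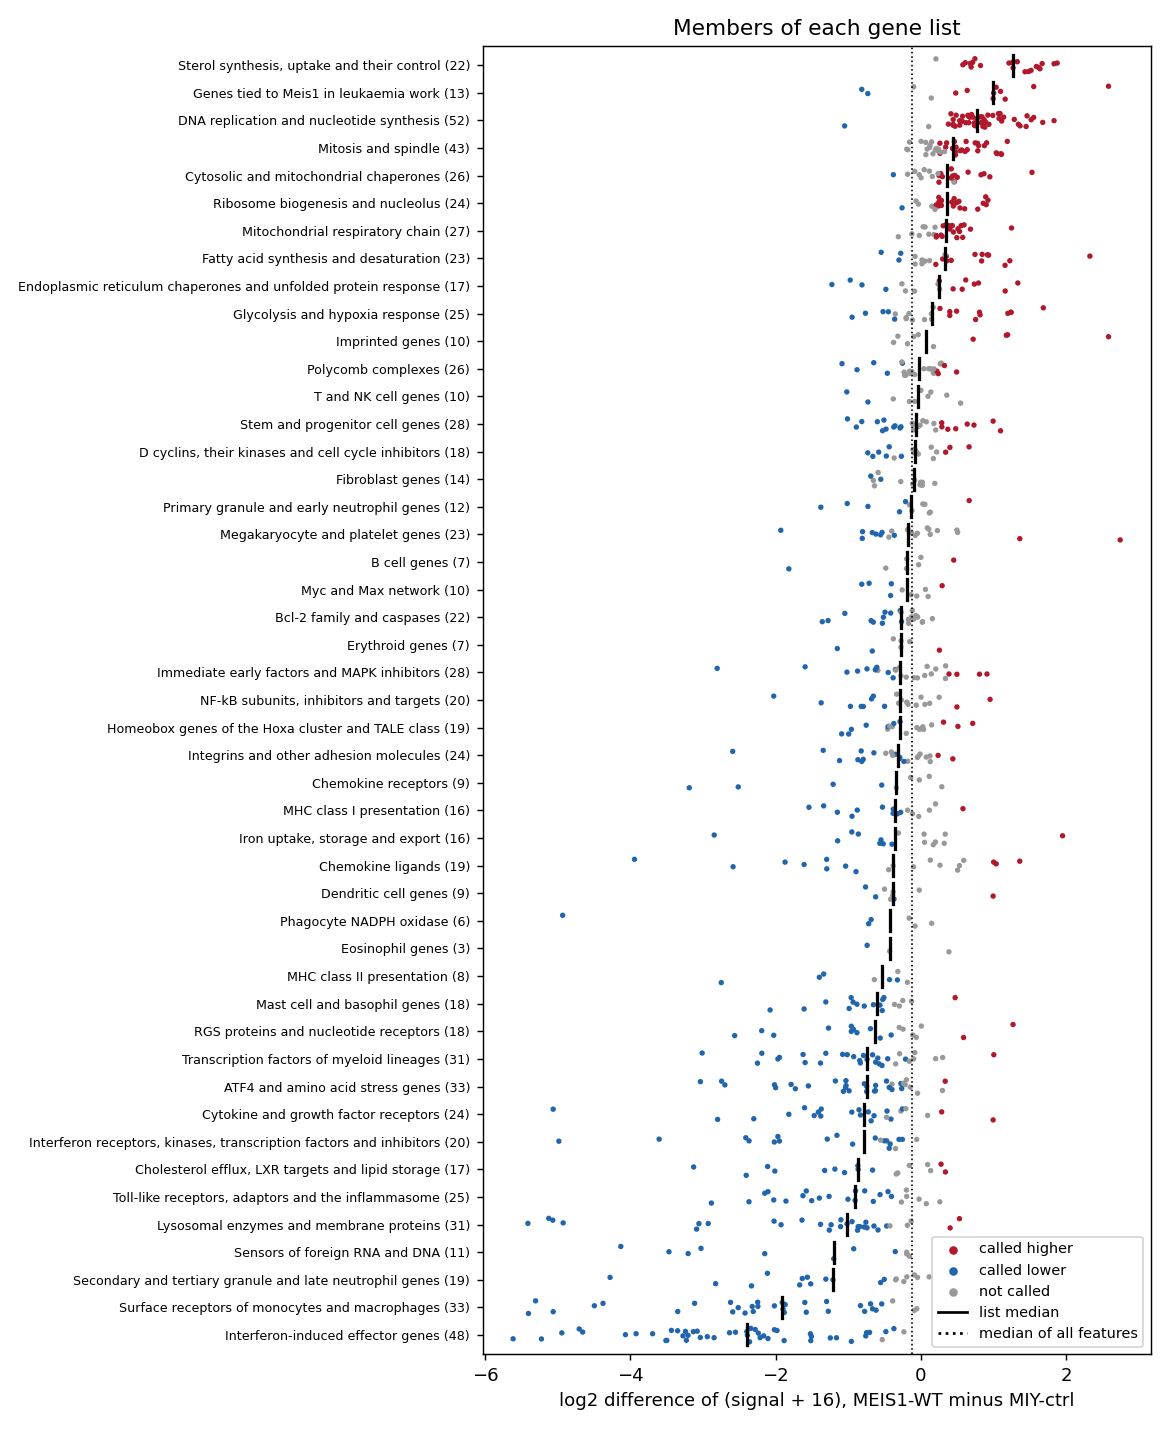
Log2 difference, MEIS1-WT minus MIY-ctrl, of every tested member of 47 gene lists (rows, number tested in brackets); red and blue points passed as higher and lower, grey points did not pass, bars are list medians and the dotted line is the median of all features at -0.12. Sterol, DNA replication and mitosis lists stand to the right of the dotted line, and interferon effector and monocyte receptor lists stand farthest to the left, with medians of -2.39 and -1.91.

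DNA replication and nucleotide genes rose in 50 of 52 and fell in 1, with a median of 0.77 against -0.12 over all features. Tk1, thymidine kinase, read 160.2, 103 and 257 in control and 569.6, 630.0 and 671 with MEIS1-WT (1.84 ± 0.164 SE, adjusted p = 2.98e-09). Ccne1, the cyclin that starts S phase, read 51.0, 43.0 and 89.2 in control and 227, 196 and 189 with MEIS1-WT (1.56 ± 0.147 SE, adjusted p = 8.21e-09). Cdc6, which loads the replicative helicase, read 165, 104 and 167 in control and 407, 469 and 442 with MEIS1-WT (1.52 ± 0.116 SE, adjusted p = 2.02e-10). Control replicate 2 was the lowest control array in each of these, and without it 50 genes still rose. Fen1, which trims Okazaki fragments, rose by 1.68, Orc1, of the origin recognition complex, by 1.46 (0.45 in its second probe set), and Rrm1, of ribonucleotide reductase, by 1.45. Of 3 Rrm1 probe sets 2 rose and 1 was not called, with the lowest at 0.18. The one that fell was the E2F factor gene E2f2 (101, 72.6 and 129.8 in control and 48.5, 29.5 and 42.3 with MEIS1-WT, -1.05 ± 0.183 SE, adjusted p = 6.72e-05), with its second probe set at -0.44 and not called. E2f1, a factor that turns on S phase genes, read 75.9, 50.5 and 91.3 in control and 141, 149.9 and 138 with MEIS1-WT (0.87 ± 0.152 SE, adjusted p = 6.67e-05), with a second probe set at 0.13 and not called. Just 1 of the 52 was higher with MEIS1-WT than with MEIS1-deltaHD and 0 lower. An E2F site searched as TTTNNCGC was held by 11 of 43 promoters of the list (25.6%), by 3 of 35 of the mitosis list (8.6%) and by 4.9% of all genes. Cdc6 (chr11:98907983-98908052, plus strand) and Orc1 (chr4:108579384-108579453, plus strand) are shown as 2 holders with strong increases, with the reverse complement of the site in capitals in the sense strand.
Cdc6: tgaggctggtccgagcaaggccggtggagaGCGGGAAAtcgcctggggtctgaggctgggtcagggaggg
Orc1: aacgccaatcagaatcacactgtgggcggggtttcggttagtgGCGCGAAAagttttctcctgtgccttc

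Mitosis genes rose in 26 of 43 and fell in 0, with a median of 0.44. Without control replicate 2 the median was 0.25, 23 rose and 1 fell. Ccna2, cyclin A2, read 531, 387 and 590.1 in control and 1068, 1063 and 1115 with MEIS1-WT (1.10 ± 0.104 SE, adjusted p = 7.29e-09), and Birc5, survivin, of the chromosome passenger complex, rose by 1.19. The kinetochore gene Spc24 and the checkpoint gene Mad2l1 rose by 1.11 and 1.05, and Cdk1, the mitotic kinase, read 737, 589.9 and 827 in control and 1325, 1256 and 1468 with MEIS1-WT (0.91 ± 0.0925 SE, adjusted p = 2.98e-08). The groups of Ccna2 and Cdk1 did not overlap. The proliferation marker Mki67, named after its values were seen, did not pass, at 1651, 1165 and 1792 in control and 1498, 1519 and 1748 with MEIS1-WT (0.07, adjusted p = 0.676), and its groups overlapped.

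Among D cyclins, their kinases and the cell cycle inhibitors 3 of 18 rose and 6 fell, with a median of -0.08 that turned to 0.21 after median scaling (7 higher and 0 lower) and ranged from -0.13 to -0.08 without 1 array. Cdk4, the kinase of the D cyclins, read 1078, 1086 and 1125 in control and 1737, 1749 and 1754 with MEIS1-WT (0.66 ± 0.0700 SE, adjusted p = 4.95e-08), with groups far apart for their spread, and Cdk2, the partner of cyclin E, rose by 0.40. Cdkn1b, the inhibitor p27, read 123, 115 and 150.1 in control and 75.1, 81.2 and 70.4 with MEIS1-WT (-0.66 ± 0.139 SE, adjusted p = 0.00056), a call lost after median scaling (-0.34). Leaving out control replicate 1 left 4 lower.

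Genes of cell death fell in 11 of 22 and rose in 0, with a median of -0.27 that turned to 0.05 after median scaling (3 lower and 2 higher). Fas, a death receptor, read 60.8, 38.4 and 44.3 in control and 1.97, 13.4 and 17.5 with MEIS1-WT (-1.28 ± 0.224 SE, adjusted p = 7.36e-05). Bcl2l11, the killer protein BIM, read 191, 189 and 179 in control and 82.9, 91.5 and 72.0 with MEIS1-WT (-1.05 ± 0.118 SE, adjusted p = 1.38e-07). Bmf, a relative of BIM, fell (-1.36) in the probe set used and differed by 0.06 in its second one. On the protective side Mcl1 fell (-0.53), lost after median scaling (-0.16). The groups of Fas and Bcl2l11 were separate. Of these, Bcl2l11 was also lower than with MEIS1-deltaHD, with a difference of -0.69 ± 0.118 with adjusted p = 0.000344.

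ATF4 switches on amino acid uptake and synthesis when cells are short of amino acids or under stress in the endoplasmic reticulum. Of 33 genes of this response 25 fell and 1 rose, with a median of -0.75. Trib3, a pseudokinase that feeds back on ATF4, read 803, 986 and 711 in control and 84.7, 98.3 and 78.3 with MEIS1-WT (-3.04 ± 0.145 SE, adjusted p = 4.04e-14). Atf5, a related factor, read 413, 458 and 387 in control and 64.7, 40.8 and 43.6 with MEIS1-WT (-2.74 ± 0.138 SE, adjusted p = 9.96e-14). Cth, which makes cysteine, read 119, 137 and 161 in control and 19.3, 2.02 and 5.00 with MEIS1-WT (-2.70 ± 0.267 SE, adjusted p = 1.74e-08). All 3 MEIS1-WT arrays were below 100 for each of them. Gpt2, an alanine transaminase, fell (-2.02) and Slc1a4, a carrier of neutral amino acids, (-1.79). Nupr1, a stress-induced chromatin protein, read 1575, 1421 and 1480.3 in control and 334, 330.1 and 426 with MEIS1-WT (-1.999 ± 0.116 SE, adjusted p = 1.61e-12), and here MEIS1-WT stayed above MEIS1-deltaHD, at 147 ± 36.2 (SD, n = 3), by 1.23 ± 0.116 with adjusted p = 7.08e-08. Atf4 itself differed by -0.40, lost after median scaling (-0.03). Ddit4, an inhibitor of mTORC1, rose by 0.34 (adjusted p = 0.0401), with overlapping groups, and lost its call without control replicate 2 (0.27) or 3 (0.30), without MEIS1-WT replicate 2 (0.34) or 3 (0.21) and after quantile normalization (0.32). The direct test placed 5 of the 33 above MEIS1-deltaHD and 0 below. The ATF4 element searched as TGATGNAA was in 6 of 28 promoters of the list (21.4%) and in 3.9% of all genes. Nupr1 (chr7:126625541-126625610, minus strand) is shown as a holder that fell (-1.999), with the reverse complement of the element in capitals.
Nupr1: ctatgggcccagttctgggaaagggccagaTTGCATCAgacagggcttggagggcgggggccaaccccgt

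Chaperones of the cytosol and mitochondria rose in 16 of 26 and fell in 1, with a median of 0.36. Hsph1, a disaggregase of the HSP110 family, read 242, 235 and 233 in control and 701, 748 and 696 with MEIS1-WT (1.53 ± 0.0776 SE, adjusted p = 1.15e-13), and its 3 control arrays lay within 10 signal units of each other. Stip1, which hands clients from HSP70 to HSP90, rose by 0.95. Hspa9, the mitochondrial HSP70, fell (-0.38), lost after median scaling (-0.01). In the endoplasmic reticulum 8 of 17 genes rose and 4 fell, with a median of 0.26. Sdf2l1 and Creld2, small secretory chaperones, rose by 1.34 and 1.16. The sensor gene Ern1, which encodes IRE1, read 271, 293 and 252 in control and 118, 102 and 102 with MEIS1-WT (-1.22 ± 0.117 SE, adjusted p = 1.02e-08), and Xbp1, the factor it activates, read 3874, 3485 and 3961 in control and 2144, 2102 and 2179 with MEIS1-WT (-0.81 ± 0.0790 SE, adjusted p = 1.4e-08). In the probe sets used both fell with no overlap, as did Sel1l, a scaffold for the removal of misfolded proteins (-0.97). Of 5 Ern1 probe sets 2 fell and 3 were not called, with the highest at -0.13.

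Genes of ribosome biogenesis rose in 19 of 24 and fell in 1, with a median of 0.36. Nolc1, a nucleolar chaperone, read 571, 691 and 574 in control and 1131, 1236 and 1151 with MEIS1-WT (0.92 ± 0.0784 SE, adjusted p = 1.29e-09), and Cad, the first enzyme of pyrimidine synthesis, rose by 0.90. Odc1, which makes putrescine, rose by 0.86. Npm1 was the one that fell (-0.26), and it turned to 0.01 after quantile normalization and 0.11 after median scaling and lost its call without control replicate 1 (-0.22) or MEIS1-WT replicate 1 (-0.22). Of the mitochondrial respiratory chain 19 of 27 rose and 0 fell (1 fell without control replicate 3), with a median of 0.35. Ndufa4 read 746, 624 and 858 in control and 1648, 1855 and 1824 with MEIS1-WT (1.25 ± 0.0960 SE, adjusted p = 2.35e-10) and Uqcrc2, of complex III, rose by 0.68, and by 0.21 in its second probe set. For both lists 0 members were lower and 0 higher with MEIS1-WT than with MEIS1-deltaHD. Myc, which drives many such genes, did not rise, at 1149.7, 1227 and 1064 in control and 856, 855 and 869 with MEIS1-WT (-0.41 ± 0.0820 SE, adjusted p = 0.000363), a call lost after median scaling (-0.04). Of 10 genes of the Myc network 1 rose and 4 fell, with a median of -0.20 that turned to 0.08 after median scaling (3 higher and 1 lower). The single riser was lost without control replicate 1 or 3 and without MEIS1-WT replicate 1 or 2, which leaves 0 higher.

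Glycolysis and hypoxia genes rose in 11 of 25 and fell in 5, with a median of 0.15. After median scaling 14 were higher and 1 lower with a median of 0.52, and without control replicate 2 the median was 0.09. Egln3, an oxygen-sensing hydroxylase that HIF induces, read 279.7, 278 and 310.2 in control and 947, 965 and 986 with MEIS1-WT (1.69 ± 0.0753 SE, adjusted p = 9.45e-15). Pfkl, phosphofructokinase of liver type, rose by 1.24, Tpi1, triose phosphate isomerase, by 1.24, and Bnip3, a mitophagy receptor, by 1.199. Another Pfkl probe set was at -0.30 and not called. Vegfa, the vessel growth factor and a well-known HIF target, fell, at 171, 230.0 and 183 in control and 88.0, 93.3 and 96.6 with MEIS1-WT (-0.95 ± 0.158 SE, adjusted p = 4.06e-05). No overlap was seen for Egln3 or Vegfa. Of iron genes 1 of 16 rose and 8 fell, with a median of -0.35. Without control replicate 3 there were 4 higher, without MEIS1-WT replicate 3 there were 2, and after median scaling 5 were higher and 4 lower. The member that rose with all arrays in the fit was Tfrc, the transferrin receptor, at 899, 528 and 942 in control and 3032, 2994 and 2998 with MEIS1-WT (1.95 ± 0.127 SE, adjusted p = 1.18e-11), and its difference from MEIS1-deltaHD was 0.00 ± 0.127 with adjusted p = 0.997. Cp, the ferroxidase ceruloplasmin, read 140.4, 210.0 and 134 in control and 13.6, 1.06 and 12.3 with MEIS1-WT (-2.84 ± 0.231 SE, adjusted p = 6.04e-10). Slc11a1, an iron and manganese pump of phagosomes, fell (-0.95), and Fth1, ferritin heavy chain, (-0.56), lost after median scaling (-0.20).

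Immediate early genes and MAPK inhibitors fell in 11 of 28 and rose in 4, with a median of -0.28 that turned to 0.06 after median scaling (4 lower and 8 higher). Leaving out control replicate 1 or 3, or MEIS1-WT replicate 1 or 2, left 2 higher, and without control replicate 2 the median was -0.09. Fos read 753, 961 and 666 in control and 129, 85.4 and 86.6 with MEIS1-WT (-2.80 ± 0.140 SE, adjusted p = 9.31e-14) and Atf3, a stress factor, fell (-1.59). Spry2, an inhibitor of receptor kinases, rose, at 77.3, 109 and 98.8 in control and 218, 191 and 168 with MEIS1-WT (0.91 ± 0.143 SE, adjusted p = 1.87e-05), with a second probe set at -0.21 that was not called. The list had 8 members higher with MEIS1-WT than with MEIS1-deltaHD and 0 lower. Of NF-kB genes 8 of 20 fell and 2 rose, with a median of -0.29 (0.01 after median scaling, 5 lower and 3 higher). Il1b, the cytokine interleukin 1 beta, read 120.3, 198 and 112 in control and 25.8, 23.1 and 17.8 with MEIS1-WT (-2.02 ± 0.235 SE, adjusted p = 2.36e-07), and Bcl3, a partner of the p50 and p52 subunits, fell (-1.37). Traf1, an adaptor of TNF receptors, rose from dim values, 16.8, 17.3 and 7.73 in control and 45.3, 38.1 and 40.8 with MEIS1-WT (0.95 ± 0.197 SE, adjusted p = 0.000471), with its second probe set at 0.46 and not called.

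Adhesion genes fell in 12 of 24 and rose in 2, with a median of -0.32 that turned to 0.04 after median scaling (7 lower and 5 higher). Itgam had the lowest value of the list (-2.59), followed by the integrin chains Itgb7 at -1.34 and Itgal, the chain of LFA-1, at 820.1, 822 and 721 in control and 368, 353 and 340.1 with MEIS1-WT (-1.12 ± 0.0946 SE, adjusted p = 1.23e-09). Icam2, a ligand of LFA-1, rose by 0.44. Of 26 Polycomb genes 4 rose (15.4%) and 5 fell (19.2%), near the shares of all features, 13.3% and 19.4%. Their median was -0.02 (0.30 after median scaling, 11 higher and 2 lower, and from -0.07 to 0.06 without 1 array). Without control replicate 3, and without MEIS1-WT replicate 2, 2 members rose. Pcgf1 read 106, 91.0 and 92.0 in control and 23.3, 37.8 and 53.9 with MEIS1-WT (-1.08 ± 0.171 SE, adjusted p = 1.85e-05) and Ezh1, a methyltransferase of histone H3, 153, 147 and 134 in control and 72.9, 68.6 and 72.7 with MEIS1-WT (-0.88 ± 0.114 SE, adjusted p = 1.28e-06), both lower on every MEIS1-WT array. Another Ezh1 probe set was at 0.27 and not called. Mtf2, which brings the complex to CpG islands, rose by 0.49.

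Of the 15 genes with the greatest increase by the rule, 5 stood in no list. Besides Ddx4, an RNA helicase of germ cells, they were Rasgef1b, an exchange factor for small GTPases, Hpgd, which breaks down prostaglandins, Spin4, a reader of histone methylation, and Neto2, an auxiliary protein of glutamate receptors. Ddx4 read 40.5, 77.6 and 35.5 in control and 322, 349 and 310.0 with MEIS1-WT (2.40 ± 0.176 SE, adjusted p = 9.97e-11) and Rasgef1b 68.7, 97.8 and 51.8 in control and 324, 322 and 284 with MEIS1-WT (1.91 ± 0.165 SE, adjusted p = 1.88e-09). Spin4 read 44.9, 35.2 and 32.0 in control and 147, 141 and 176 with MEIS1-WT (1.68 ± 0.181 SE, adjusted p = 7.7e-08) and Neto2 43.2, 49.0 and 28.2 in control and 176, 163 and 141 with MEIS1-WT (1.66 ± 0.147 SE, adjusted p = 2.48e-09). Each had all MEIS1-WT arrays above the highest control array by a wide margin. Hpgd rose by 1.72 in a probe set shared between transcripts, and by 0.33, not called, in its second one. All 5 were higher with MEIS1-WT than with MEIS1-deltaHD, by 2.99 ± 0.176 with adjusted p = 1.97e-11 for Ddx4, 1.99 ± 0.165 with adjusted p = 9e-09 for Rasgef1b, 1.32 ± 0.193 with adjusted p = 5.1e-05 for Hpgd, 1.67 ± 0.181 with adjusted p = 7.26e-07 for Spin4 and 1.02 ± 0.147 with adjusted p = 4.27e-05 for Neto2. Among the 15 genes with the greatest decrease, Tgfbi, Mpeg1 and Ifit1bl1 stood in no list. Mpeg1, a pore-forming protein of macrophages, read 1286, 1485 and 1743 in control and 47.3, 11.7 and 18.2 with MEIS1-WT (-5.27 ± 0.187 SE, adjusted p = 1.13e-16), and Ifit1bl1, a relative of Ifit1, fell (-5.20).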

How the data were processed

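Total RNA was hybridised to Affymetrix mouse 430 2.0 arrays, 12 in all, and the authors deposited 1 linear signal intensity per probe set and array, made with GCOS 1.2 per the submitters' processing notes. On each array the 2% trimmed mean was 100 in the deposited intensity, and this scaling was kept. Genes were named from the platform annotation with RefSeq. Of 45101 probe sets, the 64 control probe sets were left out, as were those not above the array's 40th percentile on at least 3 of the 12 arrays. The brightest probe set stood for a gene, which gave 14005 genes and 5985 features without a single symbol.

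One limma model (version 3.58.1, R 4.3.3) of 4 groups was fitted to log2(signal + 16) of the 12 arrays with an intensity trend and 8 residual degrees of freedom, after checks on simulated data. An exact permutation test of 3 against 3 arrays cannot go below 0.1. The 47 gene lists hold 1137 entries, of which 964 were tested, and the members and lists were chosen with earlier results of these data known. Named genes are the 15 strongest in each direction, key genes of the lists, and up to 6 of the largest differences and 4 opposite calls per list. Some genes are not reported here. Replicate numbers did not pair the arrays. Alternatives in scaling, filter, added constant, probe set choice, model and left-out arrays were run.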

Additional observations from a re-analysis of the deposited data

How the results depend on the processing

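Without 1 array the features that were higher ranged from 2312 to 2528 and those lower from 3184 to 3686. Samples with the same replicate number did not deviate together (correlations -0.0248, -0.0071 and 0.00652), and the fit with a replicate block gave 2611 higher and 3798 lower. Median scaling moved the most: 4959 features were higher and 1448 lower, and members called lower became 3 for HOX and TALE genes, 3 for stem cell genes, 15 for myeloid transcription factors, 10 for interferon signalling, 5 for MHC class I, 3 for class II, 3 for primary granules, 8 for mast cells, 0 for eosinophils, 1 for erythroid, 4 for megakaryocyte, 1 for dendritic, 0 for fibroblast, 0 for cyclin and inhibitor, 3 for cell death, 4 for iron, 1 for Myc network, 4 for immediate early, 5 for NF-kB, 2 for Polycomb and 7 for adhesion genes. Without an intensity trend 3 class II and 1 T and NK cell genes were lower, with the filter at the 60th percentile 1 dendritic gene, and after quantile normalization or without shared (_s and _x) probe sets 1 fibroblast gene. Without 1 array the lower members numbered 3 to 5 in class II, 1 to 2 in the T and NK cell list, 1 to 3 in the dendritic list and 1 to 3 in the fibroblast list. The sign turned under median scaling for Cebpa (0.15), Hoxa9 (0.08), H2-DMa (0.013), Mpo (0.074), Rac2 (0.28), Dgat1 (0.034), Gpam (0.059) and Npm1 (0.11), under quantile normalization for Npm1 (0.008), in the mean of probe sets for Ctse (-0.062), without shared probe sets for Ctse (-0.66) and Plagl1 (-0.17), and in the second probe set for Ctse (-0.66) and Mycn (0.52), which passed there. Second probe sets that did not pass had the opposite sign for Kit (-0.17), Plagl1 (-0.17), Pdia3 (-0.24), Spry2 (-0.21), Rian (-0.19), Bmf (0.06), Gpam (0.06) and Npm1 (0.03). Some other probe set that did not pass had the opposite sign for Ezh1 (0.27), Pfkl (-0.30), Acly (-0.21), Aacs (-0.07) and Meg3 (-0.29). Second probe sets of Klf4 (-1.24), Lss (0.83), Lpl (-1.19), Fabp4 (-1.21), Srebf2 (0.43), Hoxb3 (-0.72), Ikzf2 (-0.49), Sel1l (-0.62) and Ezh1 (-0.53) passed in the same direction with a smaller difference. For Pknox1, Rgs2, Mtf2, Bcl2l11, Mcl1, Cp and Ccnd1, 1 probe set of each gene did not pass but had the same sign. The cause was not tested beyond the settings themselves. When 1 array was left out, 301 to 307 of the named genes kept their direction and their side of the threshold, against 276 after median scaling.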

Other observations

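The control arrays spread more than the MEIS1-WT arrays in the genes that were bright in control. Among 7619 features with a control mean above 100, the range over the 3 arrays of a group had a median of 0.22 on the log2 scale in control and 0.17 with MEIS1-WT, and 33 features ranged over more than 1 in control against 10 with MEIS1-WT. Over all 19990 features the medians were 0.33 and 0.30. Among genes with a single symbol and a control mean above 100, the largest control range was that of the chemokine gene Ccl2. It was 1.61 in control and 0.17 with MEIS1-WT. Scd1, a desaturase, followed with 1.52 and 0.14. Elane, neutrophil elastase, ranged over 1.30 in control and 0.11 with MEIS1-WT, with 402 on control replicate 2 against 800.0 and 1016 on the others. Tgm2, a transglutaminase of macrophages, read 458, 922 and 368 in control and 169, 68.3 and 135 with MEIS1-WT, so that control replicate 2 was highest. Serpinb2, a protease inhibitor of activated macrophages, read 174, 429 and 153 in control and 146, 91.6 and 85.3 with MEIS1-WT. Control replicate 2 was thus the highest control array for Tgm2 and Serpinb2 and the lowest for Elane and Tk1 (103, with 160.2 and 257 on the others). These genes were picked for their wide control range. Other macrophage genes were mixed: Csf1r, Mpeg1 and Tgfbi were highest on control replicate 3, and Ms4a6d, Ctss and Gpnmb on control replicate 2.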
